A study of Bos taurus with 24 samples.

Results

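The granulosa cells of cows whose oocytes gave many blastocysts in vitro were compared with those of cows whose oocytes gave few. The comparison took 10 of the 24 sequenced cows by the BL rate in the labels, which is the percentage of a cow's inseminated cumulus-oocyte complexes that reached the blastocyst stage. The 6 high-rate cows had a BL rate of at least 50% (cow 4 with 50%, cow 7 with 50%, cow 16 with 70%, cow 17 with 71%, cow 20 with 67% and cow 23 with 57%). The 4 low-rate cows yielded blastocysts at a rate of at most 25% (cow 9 with 20%, cow 10 with 25%, cow 11 with 25% and cow 18 with 20%). Cow 8, with 25%, was left out as it was in the study. The study had found a low share of uniquely mapped reads in this library and an outlying expression profile. A further 11 cows with rates between 29% and 46% and 2 cows without any blastocyst stood outside the contrast.

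All animals were Holstein cows slaughtered at an abattoir, in the luteal phase but without synchronisation of the cycle. Each library held the granulosa cells of all antral follicles of both ovaries of 1 cow, pooled. Leukocytes had been reduced with beads against CD45, and erythrocytes with a lysis buffer. No cow received a treatment. The oocytes were inseminated with semen of bulls that were high or low on the Nordic Total Merit (NTM) index, and a low-NTM bull was used for 1 of the 6 high-rate cows (cow 4) and for 2 of the 4 low-rate cows (cows 9 and 10). The cells had been aspirated before insemination. How many oocytes stand behind each BL rate was not given per cow in the sources used here, so the counting error of each rate could not be computed. The paper summarises the number over its sequenced cows, where it was small on average and varied widely. A rate can therefore rest on few oocytes, and so can the place of a cow in a group.

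Granulosa cells are the somatic cells that line the follicle and surround the oocyte. They respond to FSH and LH, convert androgens to oestradiol and pass metabolites and signals to the oocyte through gap junctions, and they die early when a follicle becomes atretic. The competence of an oocyte, its ability to become a blastocyst after fertilisation, is acquired while it grows in contact with these cells. The comparison asked whether the RNA of the pooled granulosa cells of a cow differed with the yield of blastocysts from her oocytes. In a pooled sample, fewer cells of a type and less RNA per cell cannot be told apart.

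The files list genes by Ensembl identifier and pair none of the 24616 identifiers with a name. The gene table used here matched 0 of them, so genes are described below by identifier, level and count, and the label granulosa cells could not be checked against marker genes.

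The counts on genes ranged from 21488333 (cow 7) to 26857540 (cow 18) over the 10 libraries, and the groups overlapped in depth. Of 24615 genes listed for all cows, 20343 had a count in at least 1 of the 10 libraries, and 12071 reached 1 cpm (counts per 1e6 counts) in at least 4 libraries and were tested. Cow 20 stood apart from the other high-rate cows. It had 17771 genes with at least 1 count, against 16079 to 16575 in the other 5, and 4257 genes with only 1 to 5 counts, against 2533 to 2842. Its TMM factor, the edgeR scaling factor that corrects a library for its composition, was 0.798, the lowest of the 10. Several counts of genes, the comparisons of scores and libraries and the 4 genes described below are therefore given with and without cow 20. The classes of expression level and the remaining counts, such as that of genes with large estimates, are given with it.

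The blastocysts of the 2 groups were first compared by the other scores. The kinetic score, the mean stage of a cow's blastocysts from non-expanded to hatched, was 1.25 (cow 4), 1.25 (cow 7), 1.64 (cow 16), 1.70 (cow 17), 1.33 (cow 20) and 1.88 (cow 23) in the high-rate cows. In the low-rate cows it was 1.00 (cow 9), 1.13 (cow 10), 1.29 (cow 11) and 1.00 (cow 18). The groups overlapped only through cow 11, which lay above cows 4 and 7, and the means were 1.51 ± 0.267 (SD, n = 6) and 1.11 ± 0.138 (SD, n = 4). The exact two-sided permutation test over all 210 divisions of the 10 cows gave p = 0.0286, and 0.257 after Benjamini-Hochberg adjustment over the 9 measures tested, with 0.00952 as the smallest p this design allows. Without cow 20 the difference in means was 0.439 instead of 0.403 (exact permutation test, p = 0.0476, adjusted p = 0.429).

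The morphology score, the mean visual grade from poor to excellent, was 2.33, 2.67, 2.00, 2.00, 2.50 and 2.75 in high-rate cows 4, 7, 16, 17, 20 and 23. In low-rate cows 9, 10, 11 and 18 it was 1.00, 1.86, 2.60 and 2.00. The groups overlapped, with means of 2.38 ± 0.325 (SD, n = 6) and 1.87 ± 0.660 (SD, n = 4), and the difference did not pass the exact permutation test (p = 0.152, adjusted p = 0.686). Without cow 20 the difference was 0.485 instead of 0.51 (exact permutation test, p = 0.206, adjusted p = 0.735). Among the cows with high-NTM semen the difference in morphology was 0.084 (n = 5 and 2), against 0.51 over all 10 cows. That of the kinetic score was 0.415 against 0.403. The other 7 measures were the total count, the number of genes with a count, the number with 1 to 5 counts, the share of the 10 highest genes and the scores on the first 3 principal components. Their adjusted p-values in the same exact permutation test were all 0.990. Without cow 20 they lay between 0.735 and 0.937, and some differences changed sign. The mean number of genes with a count was 130 higher in the high-rate cows with cow 20 and -109 (lower) without it. For genes with 1 to 5 counts the difference was 88.2 with cow 20 and -171 without it, and for the score on the third component -0.588 and 3.40. The component scores compared without cow 20 were still those computed from all 10 libraries.

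The transcriptomes of the 2 groups lay among each other. Of the variance of log2 cpm over the 12071 genes, 37.8% lay on the first principal component, and membership of the high- or low-rate group accounted for 0.923% of the spread of its scores. The high-rate cows took both ends of this component, with cow 16 at 60.6 and cow 4 at -43.6, and the 4 low-rate cows lay between -29.2 and 24.9. In the study's own components, the first correlated with the RNA integrity number (RIN), which the study therefore put in its model. RIN is not in the labels, so its relation to the component found here was not tested. The next 3 components held 16.8%, 11.7% and 8.32% of the variance, and the group accounted for 2.58%, 0.0297% and 3.63% of the spread of their scores. Pairs of libraries were not less alike across the groups than within them. The median Pearson correlation of log2 cpm was 0.963 over the 24 pairs of 1 high-rate and 1 low-rate cow, 0.951 over the 15 pairs of high-rate cows and 0.959 over the 6 pairs of low-rate cows. These pairs share libraries and are given as a description. Without cow 20 these medians were 0.964 over 20 pairs, 0.956 over 10 pairs and 0.959 over 6 pairs. In components computed anew from the other 9 libraries the group accounted for 0.357%, 10.4%, 15.1% and 6.66% of the spread of the scores on the first 4. Cow 16 was least like the rest, with a median correlation of 0.938 with the other 9 libraries.

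**Figure D1:**
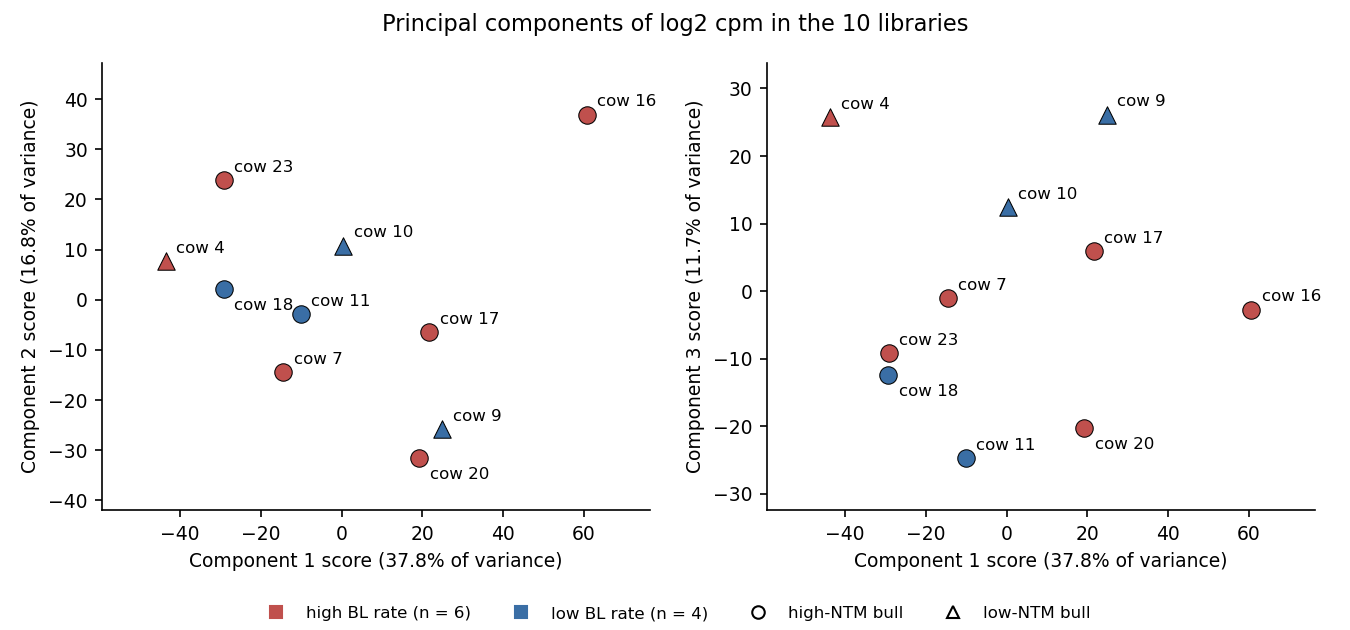
Scores of the 10 libraries on the first and second (left) and on the first and the third (right) principal components of log2 cpm, with the share of the variance on each axis; each point is 1 cow, red for high BL rate (n = 6) and blue for low BL rate (n = 4), circles for high-NTM and triangles for low-NTM bulls. The low-rate cows lie inside the range of the high-rate cows on the first component, and the 3 triangles lie above the 7 circles on the third.

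Gene by gene, the group accounted for a median of 3.36% of the variance of log2 cpm, and for at least 50% of it in 50 of 12071 genes. The NTM class of the bull, whose semen the cells never met, accounted for a median of 6.91% over the same genes and 10 cows. It accounted for at least 50% in 360 of 12071 genes. What a division of these cows without any effect would reach was not computed, so neither count is read as an effect. Without cow 20 the medians were 4.71% for the group and 7.72% for the NTM class, and 128 and 441 genes reached 50%, which fewer cows make easier. On the third component the 3 cows with low-NTM bulls scored from 12.4 to 26.1, above the 7 cows with high-NTM bulls, which scored from -24.7 to 5.89. The NTM classes were not balanced over the groups, and what else differed between them was not tested.

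No gene was called between high- and low-rate cows. With edgeR's quasi-likelihood test on the raw counts, 0 of 12071 genes (0%) had an FDR under 0.05, and the smallest adjusted p was 1.00. At an unadjusted p under 0.05, 82 genes (0.679%) were higher and 57 (0.472%) were lower in the high-rate cows, 139 together, and 9 genes had a p under 0.01. The median p was 0.603. Small p-values were scarcer than in an even spread, with 139 genes in the lowest bin of width 0.05 and 771 in the highest. DESeq2's Wald test on the same genes called 0 higher and 2 lower genes, with 167 at an unadjusted p under 0.05. With limma voom and quality weights 0 were called, with 194 at that threshold. The paper did report genes related to BL rate, in a different fit. It used more of the sequenced cows, including those without blastocysts, and BL rate as a number adjusted for the bull. Its model also held RIN, age and sampling date. No fit here held these, so the absence of calls cannot be set against the paper's genes.

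**Figure D2:**
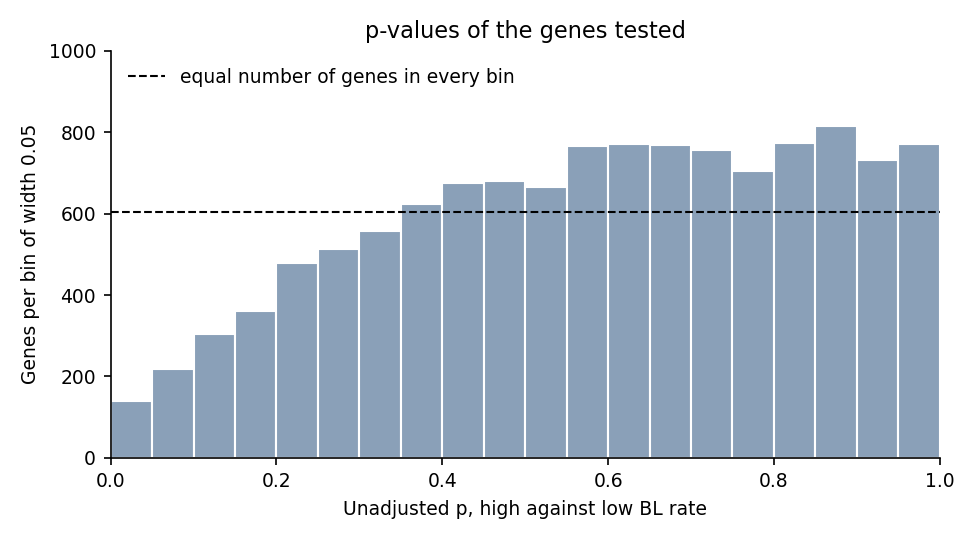
Number of genes (vertical axis) in each bin of the unadjusted p of edgeR's quasi-likelihood test, high against low BL rate (horizontal axis), over 12071 genes; the dashed line is an even spread. The bins rise from 139 genes below 0.05 to between 666 and 815 genes above 0.5.

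The absence of calls did not depend on cow 20. Without it edgeR called 0 of 12039 genes, and the unadjusted p was under 0.05 for 156, of which 80 were higher and 76 lower in the high-rate cows. Each of the other 9 cows was left out in turn as well. The number called was 0 in 8 of these fits, and 1 gene, lower in the high-rate cows, was called without low-rate cow 10. The number with an unadjusted p under 0.05 ran from 90 without cow 23 to 232 without cow 17. It was 230 without cow 16, so that the count of 139 moved by more than 1.5 times with each of these 3 high-rate cows. Adding cow 8 to the low-rate group called 0 genes too, but turned the balance of the genes with an unadjusted p under 0.05 to 44 higher and 136 lower.

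**Figure D3:**
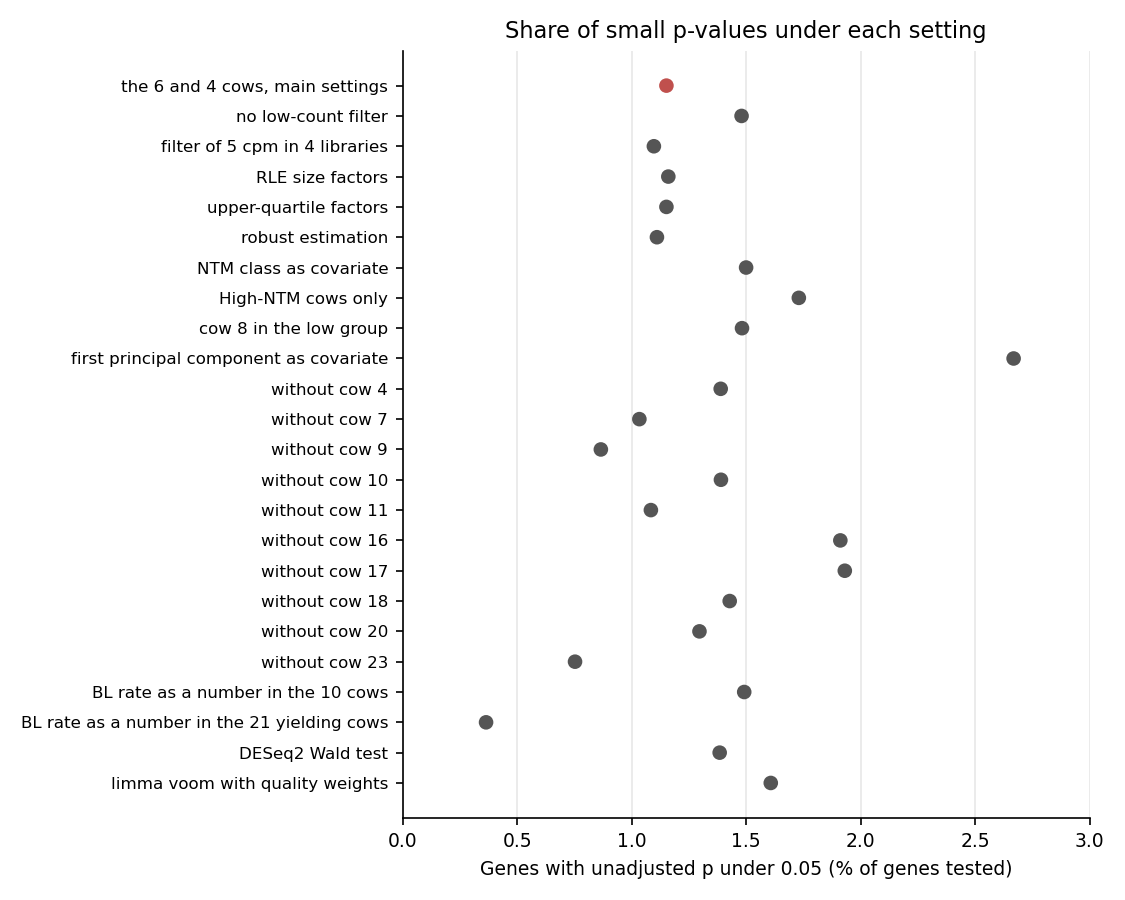
Share of the genes tested with an unadjusted p under 0.05 (horizontal axis, %) in the comparison by BL rate under each setting (vertical axis), with the main settings in red. Every setting lies between 0.364% and 2.67%, and the fit without cow 20 lies at 1.30%.

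The size of the differences that remained compatible with the data was read from the 95% interval of each log2 fold change. The median absolute log2 fold change was 0.10 and the median standard error 0.18, larger than the median estimate. In 10288 genes (85.2%) the whole interval lay within a 2-fold change in either direction, and in 7379 genes (61.1%) within 1.5-fold. For the other 1783 genes a 2-fold difference in at least 1 direction lay inside the interval and was not resolved with 6 and 4 cows. Without cow 20, 10047 of 12039 genes (83.5%) had an interval within 2-fold. No gene was at 1 cpm or more in all 6 high-rate libraries and in none of the low-rate libraries, and 0 genes showed the reverse.

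How firmly a gene could be read differed with its level, and the median spread between cows exceeded the median counting error in every class. The 1000 genes with a mean under 2 cpm had a median standard error of 0.39 on the log2 scale, and 41.1% of them had an interval within 2-fold. This share was 77.8% of 3292 genes between 2 and 10 cpm, 94.2% of 6703 genes between 10 and 100 cpm, 93.8% of 969 genes between 100 and 1000 cpm and 87.9% of 107 genes above 1000 cpm. The median counting error fell from 17.4% of a gene's count in the lowest class to 0.489% in the highest. The median spread between cows of a group was 41.0% in the lowest class, 18.4% between 10 and 100 cpm and 23.2% above 1000 cpm. Above 10 cpm, the spread between the libraries of a group was therefore the larger part of the error, and counting error the smaller. The most abundant genes were no better resolved than those between 10 and 100 cpm. Each cow gave a single library. What part of this spread came from the cow, and what from RNA integrity, sampling date or library preparation, was not tested.

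**Figure D4:**
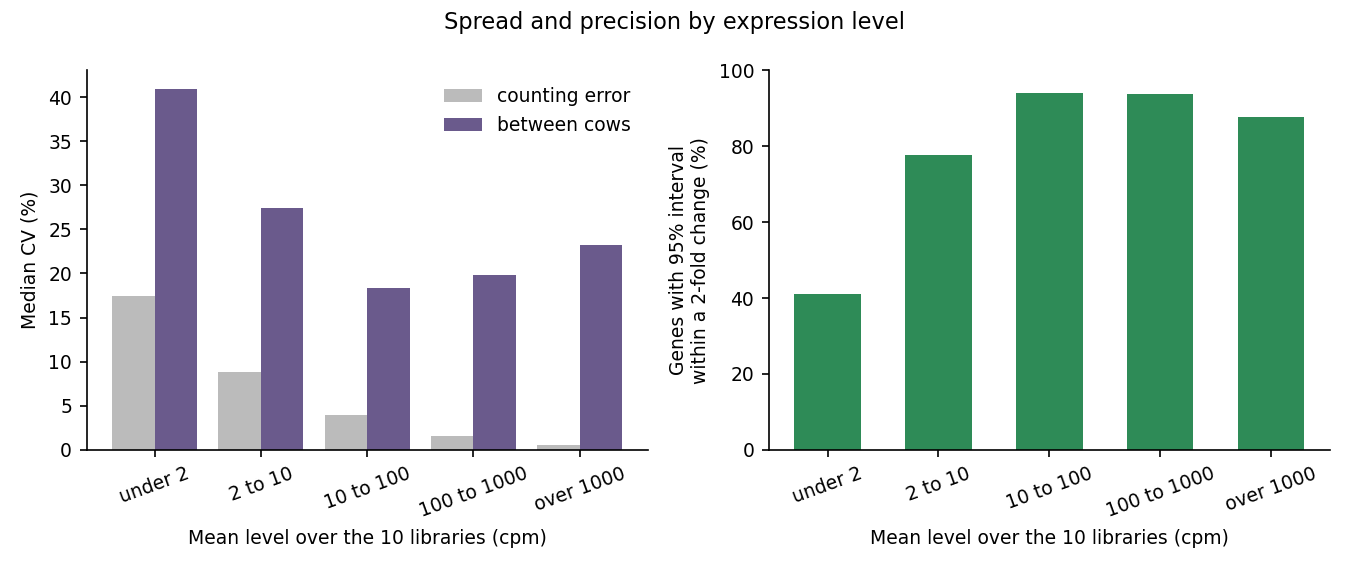
Left, the median coefficient of variation (%) from counting error (grey) and between cows of a group (purple); right, the percentage of genes whose 95% interval lies within a 2-fold change, both in 5 classes of mean level in cpm (horizontal axes). Counting error falls from 17.4% to 0.489% over the classes, whereas the spread between cows stays at 18.4% or more.

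Large estimates were few, and few of them stayed at 2-fold or more in every fit that left out 1 cow. An estimate of at least 2-fold was found in 87 genes, of which 47 were higher and 40 lower in the high-rate cows, and 65 of the 87 had a mean under 10 cpm. Their median standard error was 0.72, against 0.18 over all genes. In 16 of the 87 genes (9 higher, 7 lower) the estimate stayed at 2-fold or more in the same direction in each of the 10 fits that left out 1 cow. A gene that missed the low-count filter in any of these fits was not among the 16, whatever its estimate. In 2 of the 87 the groups did not overlap.

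Over all genes tested, the 6 high-rate cows lay above the 4 low-rate cows without overlap in log2 cpm in 16 genes (0.133%), and below them in 4 genes (0.0331%). These are descriptions of the 10 cows, since no gene passed the test. The 16 genes differed by 0.12 to 1.79 on the log2 scale, with a median of 0.31, and the 4 genes by 0.28 to 1.09 in the other direction. Without cow 20, which makes the condition easier to meet, 27 and 17 genes did not overlap. With cow 8 added to the low-rate cows, 6 and 1 did not.

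The 2 genes of smallest p in each direction were taken as examples of the size and the spread of the differences. They were chosen after the values were seen and stand for no call. ENSBTAG00000043572 was at 18.3 cpm (cow 4), 25.3 cpm (cow 7), 15.8 cpm (cow 16), 21.0 cpm (cow 17), 25.8 cpm (cow 20) and 27.4 cpm (cow 23) in the high-rate cows. In the low-rate cows it was at 31.1 cpm (cow 9), 69.7 cpm (cow 10), 42.7 cpm (cow 11) and 45.7 cpm (cow 18). The groups did not overlap, and the low-rate cows were spread more widely than the high-rate cows. The log2 fold change of high over low was -1.09 (SE 0.22, 95% interval -1.57 to -0.61), with an adjusted p of 1.0 in edgeR's quasi-likelihood test and of 0.0241 in DESeq2's Wald test. Without cow 20 it was -1.14, and without low-rate cow 10 it was -0.84. With cow 8 among the low-rate cows it was -0.78.

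ENSBTAG00000006846 had the smallest p of all genes, and its groups overlapped through 1 cow. Its level was 26.2 cpm (cow 4), 18.6 cpm (cow 7), 21.2 cpm (cow 16), 20.8 cpm (cow 17), 19.6 cpm (cow 20) and 20.0 cpm (cow 23) in the high-rate cows. Low-rate cows 9, 11 and 18 were at 49.0, 50.2 and 50.0 cpm, whereas low-rate cow 10 was at 22.6 cpm, inside the range of the high-rate cows. The log2 fold change was -1.03 (SE 0.20, 95% interval -1.47 to -0.58; adjusted p 1.0 in edgeR's quasi-likelihood test). Without cow 10 it was -1.24 with an adjusted p of 0.00997, the gene called in that fit, and without cow 20 it was -1.02 and not called. The same gene was called among the cows with high-NTM semen, a fit without low-rate cows 9 and 10 and high-rate cow 4 (log2 fold change -1.33, adjusted p 0.0191, edgeR, 5 against 2 cows), and by DESeq2's Wald test (adjusted p 0.0241). With cow 8 among the low-rate cows the log2 fold change was -0.77, and the gene was not called. Over the alternatives its adjusted p ranged from 0.00997 to 1.0.

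ENSBTAG00000044027, a gene of low level, was at 4.30 cpm (cow 4), 2.13 cpm (cow 7), 1.77 cpm (cow 16), 2.34 cpm (cow 17), 4.56 cpm (cow 20) and 2.47 cpm (cow 23) in the high-rate cows. The low-rate cows were at 1.24 cpm (cow 9), 0.295 cpm (cow 10), 0.797 cpm (cow 11) and 1.04 cpm (cow 18), all below the high-rate cows. In read pairs these were 45 to 105 against 7 to 28 per cow. The log2 fold change was 1.79 (SE 0.42, 95% interval 0.86 to 2.72; adjusted p 1.0 in edgeR's quasi-likelihood test, 0.125 to 1.0 over the alternatives). It was 1.61 without cow 20 and 1.51 without low-rate cow 10. With cow 8, the library that the study dropped as an outlier, among the low-rate cows it was 0.59. The size of this difference thus depended on whether that library was used.

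ENSBTAG00000046763 was at 18.3 cpm (cow 4), 21.8 cpm (cow 7), 17.3 cpm (cow 16), 24.8 cpm (cow 17), 23.8 cpm (cow 20) and 28.7 cpm (cow 23) in the high-rate cows. The low-rate cows were at 13.2 cpm (cow 9), 15.1 cpm (cow 10), 15.8 cpm (cow 11) and 16.7 cpm (cow 18). The groups did not overlap, though high-rate cow 16 lay close above low-rate cow 18. The log2 fold change was 0.56 (SE 0.15, 95% interval 0.23 to 0.89, adjusted p 1.0 in edgeR's quasi-likelihood test). It was 0.54 without cow 20 and 0.48 with cow 8 among the low-rate cows.

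The cows between the groups gave values that the contrast had not used. In the 11 cows with a BL rate of 29% to 46%, a slope on BL rate was fitted per 20 points of BL rate. Of 12358 genes, 0 had an FDR under 0.05 (edgeR, smallest adjusted p 0.629). The unadjusted p was under 0.05 for 941 genes (7.61%), of which 509 rose and 432 fell with BL rate by estimate. Of the 16 genes that were above without overlap in the high-rate cows, 4 had a positive slope, beside 47.7% of the 12012 genes measured in both fits. Of the 4 genes below, 2 had a negative slope, beside 52.3% of all. Cow 24, one of the 11, had 21629 genes with a count, the most of any cow, and without it 6 of the 16 and 2 of the 4 genes kept the direction of the contrast, beside 50.6% of genes with a positive and 49.4% with a negative slope.

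The levels of the 4 example genes in the middle cows spanned those of both groups. On a common TMM scale over 23 libraries (all but cow 8), ENSBTAG00000043572 ranged from 5.71 to 111 cpm with a median of 22.9 cpm in the 11 middle cows, against 17.0 to 28.4 cpm in the high-rate and 33.0 to 72.0 cpm in the low-rate cows. ENSBTAG00000006846 ranged from 8.92 to 96.6 cpm with a median of 34.0 cpm in the middle cows, against 19.2 to 26.6 cpm and 23.3 to 52.6 cpm. Both ranges in the middle cows were wider than those of the high- and low-rate cows together. ENSBTAG00000044027 ranged from 0.386 to 4.60 cpm in the middle cows (median 1.23 cpm), and the lowest and the highest of them lay in the ranges of the low-rate cows (0.305 to 1.31 cpm) and of the high-rate cows (1.90 to 4.80 cpm). ENSBTAG00000046763 ranged from 7.00 to 32.2 cpm in the middle cows (median 21.6 cpm), wider than the high- and low-rate cows together, which lay between 14.0 and 29.7 cpm.

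The slopes of these genes in the middle cows had wide intervals. On the log2 scale per 20 points of BL rate they were 1.12 (SE 1.28) for ENSBTAG00000043572, -0.87 (SE 1.64) for ENSBTAG00000006846, -1.85 (SE 1.16) for ENSBTAG00000044027 and -0.01 (SE 0.66) for ENSBTAG00000046763. The slope had the sign of the contrast for ENSBTAG00000006846 and the opposite sign for the other 3. The 95% interval held 0 for each of them. With BL rate as a number in the 10 cows of the contrast, the slope of ENSBTAG00000044027 was 0.76 on the same scale, outside its interval in the middle cows (-4.37 to 0.67). That slope has an error of its own, the gene was chosen for its small p in these 10 cows, and the difference between the slopes was not tested. The corresponding slopes of ENSBTAG00000043572 (-0.51), ENSBTAG00000006846 (-0.49) and ENSBTAG00000046763 (0.26) lay inside their intervals.

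**Figure D5:**
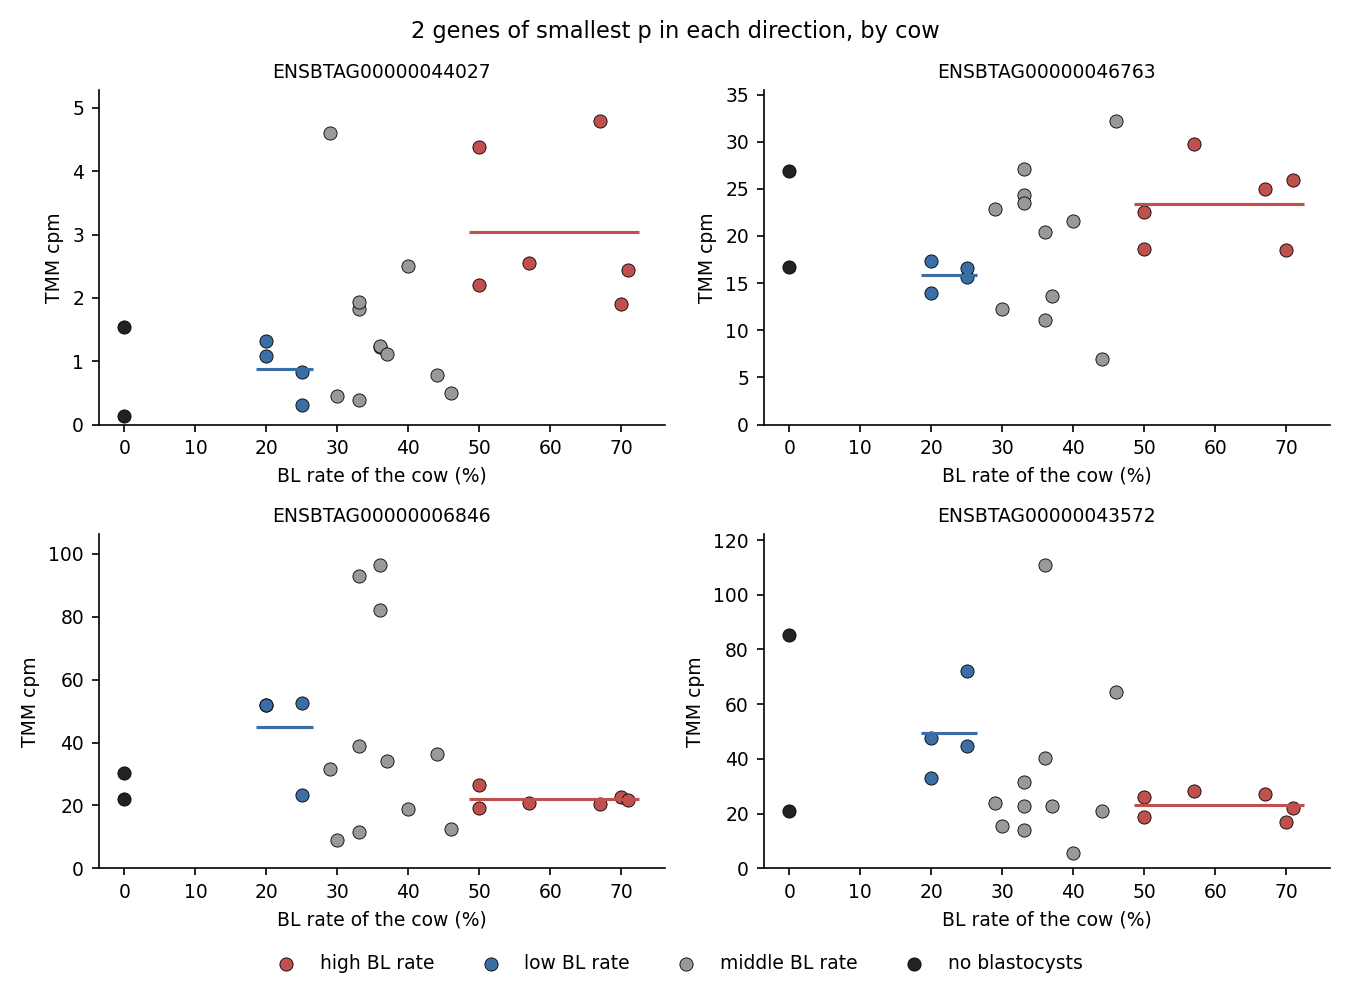
TMM-scaled cpm (vertical axes, linear from 0) of the 2 genes of smallest p in each direction against the BL rate of the cow (horizontal axes, %) in 23 cows; points are cows, red for high-rate (n = 6), blue for low-rate (n = 4), grey for middle cows (n = 11) and black for cows without blastocysts (n = 2), and lines are the means of the high- and low-rate cows. The grey points of ENSBTAG00000043572 run from 5.71 to 111 cpm and cover both groups.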

How the data were processed

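Total RNA of granulosa cells was depleted of ribosomal RNA, made into stranded libraries and sequenced, 1 library per cow. The authors mapped the reads to UMD3.1 with STAR, counted them per Ensembl gene with HTSeq and deposited raw counts, without normalization or correction for length or GC content.

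Groups were taken from the BL rate in the labels. Counts of genes with at least 1 cpm in 4 of the 10 libraries were TMM-scaled and tested with edgeR 4.0.16 (quasi-likelihood test, R 4.3.3), without covariates, with Benjamini-Hochberg adjustment at an FDR of 0.05. Each cow is 1 animal and 1 replicate. Standard errors were derived from the log2 fold change and the F statistic of the quasi-likelihood test. The 95% intervals were built from them symmetrically with a t quantile, and log2 cpm used a prior count of 2. Total counts of 21488333 to 26857540 set the counting error. Scores and library measures were compared by exact two-sided permutation tests (scipy 1.17.1). The components were added to the measures after the data were seen. Alternatives included DESeq2 1.42.0 and limma 3.58.1 (voom).

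RIN, age, sampling date and the single bull, which the study's model or design held, are not in the labels and were not used here, so their part in any value was not tested. The members and gene lists were chosen with earlier results of these data known. The lists of granulosa, steroidogenesis, atresia and other cell type genes need symbols and could not be used, and no sequence or position is given. Genes were to be named by FDR, or by smallest p among genes with a symbol; without calls or symbols, the 2 of smallest p in each direction were named, a rule set after the values were seen.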

Additional observations from a re-analysis of the deposited data

Results flagged for a closer look

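Of 26 sets of values examined (9 measures of the cows and libraries and 4 genes, each in the high-rate and in the low-rate cows), 4 held a cow far from the rest by Dixon's criterion, which chance meets in about 1 of 20 sets. Cow 20 had 17771 genes with a count, where the next high-rate cow had 16575. The same cow had 4257 genes with 1 to 5 counts, where the next had 2842. ENSBTAG00000006846 was at 26.2 cpm in high-rate cow 4, where the next high-rate cow was at 21.2 cpm. In the low-rate cows the same gene was at 22.6 cpm in cow 10, where the next was at 49.0 cpm.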

How the results depend on the processing

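No gene was called at an FDR of 0.05 by edgeR without a low-count filter, with a filter of 5 cpm, with RLE or upper-quartile factors, with robust estimation, with NTM class or the first component as covariate, with cow 8 added, or with BL rate as a number in the 10 or in the 21 yielding cows, nor by limma voom. The exceptions were genes lower in the high-rate cows, 1 in the cows with high-NTM semen, 2 with DESeq2 (5 adjusted p-values were not given by it) and 0 to 1 when each cow was left out in turn. The number of genes with an unadjusted p under 0.05 was 301 without the low-count filter, 322 with the first component as covariate (added after seeing the data), 46 with BL rate as a number in the 21 yielding cows and 90 to 232 when each cow was left out. Genes whose groups did not overlap numbered 6 above and 1 below with cow 8 added, 359 and 301 in the high-NTM cows (5 against 2 cows, added after seeing the data), 25 below without the filter, 16 above and 2 below with upper-quartile factors, 13 above and 2 below with the filter of 5 cpm, and 21 to 65 above and 6 to 38 below when each cow was left out. The cause of these shifts was not tested, though fewer cows make non-overlap easier to meet. The 4 example genes kept their sign under every alternative in which they were measured, and ENSBTAG00000044027 was not tested with the filter of 5 cpm. These genes were chosen for their small p in the 10 cows, and every alternative used all or part of the same cows. A kept sign was therefore likely from the start and is no support for a difference. Without cow 24, the middle cows gave 894 genes with an unadjusted p under 0.05. No paired analysis was possible because the cow numbers are unique and pair no cows across the groups. The medians of the gene lists were not run, since no identifier could be matched to a symbol. Counting error was largest in the genes under 2 cpm (median 17.4%), where the spread between cows was larger still (41.0%).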

Other observations

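The 2 cows without blastocysts belong to neither group. On the scale of 23 libraries, ENSBTAG00000043572 was at 20.9 and 85.3 cpm in these cows, ENSBTAG00000006846 at 22.0 and 30.2 cpm, ENSBTAG00000044027 at 0.133 and 1.54 cpm, and ENSBTAG00000046763 at 16.7 and 26.8 cpm.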
